A study of Drosophila melanogaster with 12 samples.

Results

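Paraquat was compared with water in the young oenocyte translatome of Drosophila melanogaster. Oenocytes of young females that had eaten 10 mM paraquat for 24 h (PQ-Young) were set against those of age-matched females on food coated with water (H2O-Young), with 3 libraries in each group and 6 in both. All flies of the series were females of the cross PromE-gal4 by UAS-RpL13A-FLAG, so the controls carried the driver and the tagged ribosomal protein as well. Aged females received the same treatments (H2O-Aged and PQ-Aged, 3 libraries each), which makes 12 libraries in all. The sample labels give 14 days after eclosion for young and 28 days for aged flies, the methods of the study give a somewhat younger age for the young flies, and the other 2 groups enter here only as values beside the young ones. Members were the loci with a group FPKM (fragments per kilobase of transcript, scaled to the mapped fragments of a library) of at least 1 in H2O-Young or PQ-Young, which held for 9603 of 16191 loci. Of these, 9461 had a value above 0 in both groups and gave a log2 ratio of PQ-Young to H2O-Young, 139 were listed at 0 in one group, and 3 carried a mark for too many fragments. Each group had 1 pooled FPKM per locus, so neither an SD over libraries nor a test between the groups could be formed, and each fold below is a ratio of 2 group values. A locus is counted as higher or lower where that ratio was at least 2-fold.

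Oenocytes are hepatocyte-like cells beneath the abdominal cuticle of the fly. They build very-long-chain hydrocarbons through fatty acid synthases, desaturases, elongases, reductases and the decarbonylase Cyp4g1, and they are rich in peroxisomal and detoxifying enzymes. Paraquat accepts electrons from reducing enzymes and passes them to oxygen, which produces superoxide. Superoxide dismutases turn it into hydrogen peroxide, and catalase and peroxidases remove the peroxide.

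RpL13A, the ribosomal protein that carried the tag, measured 8001 against 7306 (H2O-Young against PQ-Young, as in each pair of FPKM values below) at a locus on chromosome 3R (5624474 to 5625947, dm6) whose value includes 2 snoRNAs. The transgene held the whole of RpL13A, so this value does not separate RNA of the native gene from that of the tagged copy. Of 15 oenocyte markers, 14 were measured and their summed FPKM was 45605 in H2O-Young and 24292 in PQ-Young. Cyp4g1 itself carried the mark for too many fragments in all groups and has no value. Markers of other tissues were present too. The summed FPKM of the eggshell markers was 17320.3 in H2O-Young and 3852 in PQ-Young, that of the photoreceptor markers 816 in H2O-Young and 1574 in PQ-Young, and that of the male-only genes 7.51 in H2O-Young and 4.37 in PQ-Young, with 2 of 17 male-only genes measured. The study's own principal component analysis set a library of H2O-Young apart from the rest of its group, and group values without it cannot be formed from pooled values. The lysate came from pooled whole females, so fewer cells of a type and less RNA per cell cannot be told apart.

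Among the 9461 loci, 276 (2.92%) were at least 2-fold higher in PQ-Young and 877 (9.27%) at least 2-fold lower. Both shares are the background against which each gene group below is read. The median log2 ratio was -0.05 with an SD across loci of 0.77, and 70.4% of loci lay within 1.5-fold. A ratio of at least 4-fold was reached by 44 loci (0.465%) that were higher and by 207 (2.19%) that were lower. The sum of FPKM was 1693460 in H2O-Young and 1252260 in PQ-Young, so lower loci made up 76.1% of all loci past 2-fold on the deposited scale and 30.1% after both groups were scaled to the same sum. Quantile normalization gave 66.3% and centring on loci of similar transcript length 62.0%. Scaling to the sum added 0.44 to each log2 ratio, and list medians between -0.44 and 0 therefore change sign under it. Protein-coding loci held 230 of the higher and 760 of the lower loci. Abundant loci lay lower than scarce ones: the median log2 ratio was 0.02 between an FPKM of 10 and 100, -0.28 between 100 and 1000, and -0.51 among the 318 loci of at least 1000.

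**Figure D1:**
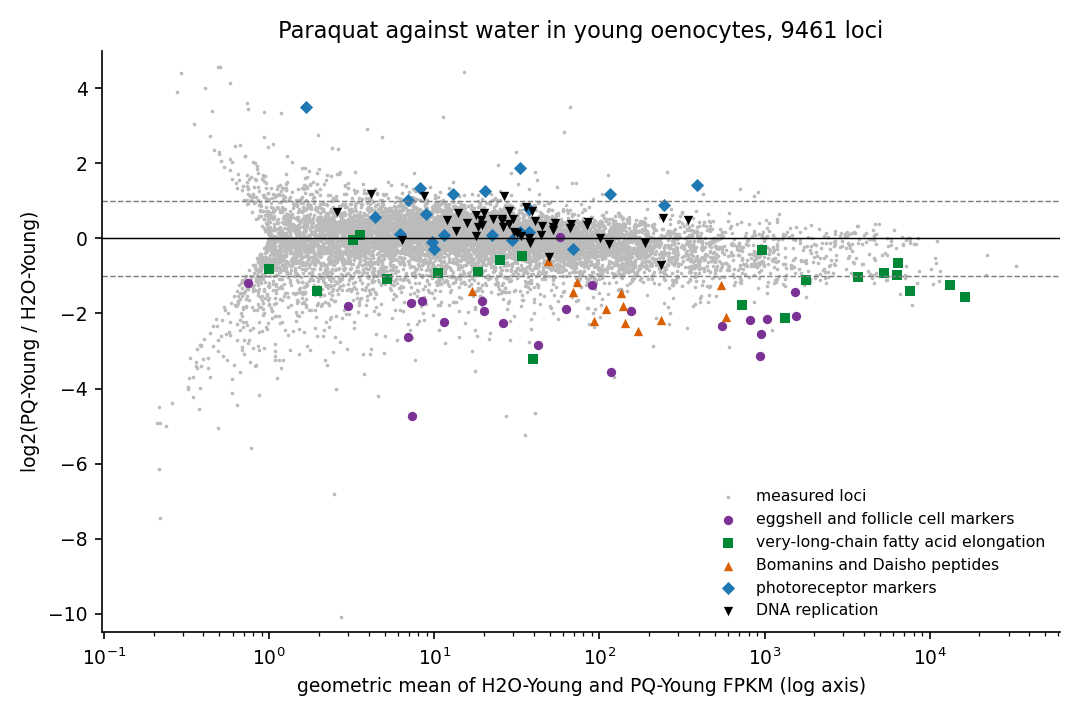
Log2 ratio of PQ-Young to H2O-Young (y axis) against the geometric mean of both group FPKM (x axis, log scale) for the 9461 measured loci, with members of 5 gene lists in colour and dashed lines at 2-fold. Eggshell and Bomanin loci lie mostly below the lower dashed line and elongation loci around it, while photoreceptor and DNA replication loci lie mostly above 0.

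The ratio also moved with transcript length. Loci whose longest annotated transcript was at most 500 nt had a median log2 ratio of -0.71, and 38.6% of these 438 loci were at least 2-fold lower. Between 500 and 1000 nt the median was -0.35 with 21.2% lower, and between 1000 and 2000 nt it was -0.07 with 8.72% lower. The median was 0.08 between 2000 and 4000 nt and 0.02 above 4000 nt, where 1.17% of loci were lower and 1.17% higher. Among loci with an FPKM of at least 10, the shortest class had a median of -0.83. In aged flies the order was nearly the opposite, from 0.18 in the shortest class to -0.11 between 2000 and 4000 nt. Many of the secreted peptides and small mitochondrial subunits described below have short transcripts, and for most of these lists the median less that of loci of similar length is given. Whether the length dependence arose in the cells or in the libraries was not tested.

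**Figure D2:**
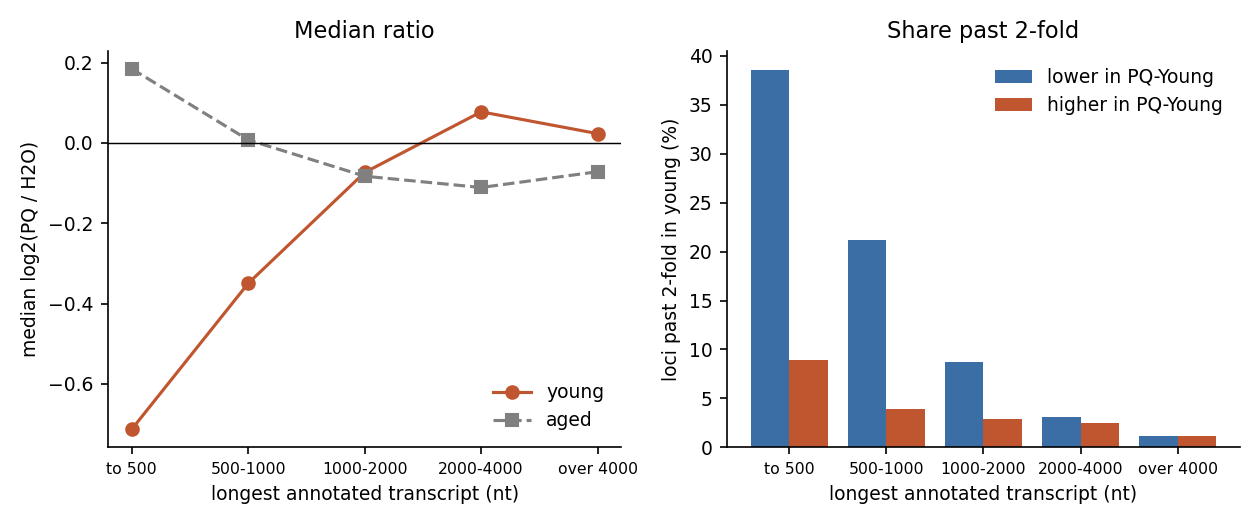
Left, median log2 ratio of paraquat to water by class of transcript length in young (circles) and aged (squares) flies. Right, percent of loci at least 2-fold lower or higher in PQ-Young, which falls from 38.6% lower in the shortest class to 1.17% in the longest.

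Coding loci that hold a single gene and whose FPKM reached 10 were ranked by ratio, and loci that share a value with another RNA were left out. The highest ratio belonged to CG10063, an uncharacterized gene on chromosome 3L, at 3.24 in H2O-Young and 69.8 in PQ-Young, or 21.5-fold higher. Rh3, an ultraviolet-sensitive rhodopsin of the inner photoreceptors, followed at 17.2 against 63, and ninaE, the main rhodopsin of the outer photoreceptors, was also among the 12 highest at 238 against 634. The heat shock genes Hsp23 and Hsp68 stood among these 12 genes at 3.42-fold and 2.94-fold. The flight muscle actin Act88F (2.60-fold), the formin Fhos (2.56-fold), the photoreceptor G protein subunit Gbeta76C (2.52-fold) and the uncharacterized CG14109, CG42246, CG12826 and CG32214 made up the rest. These 12 genes thus mix heat shock proteins with genes of the eye and of muscle.

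At the other end, 3 of the 12 lowest genes in this ranking build the vitelline membrane around the egg. Vm26Ac was at 38 in H2O-Young and 1.43 in PQ-Young (26.6-fold lower), Vm32E at 401 against 34 and Vm34Ca at 2780.5 against 314. A further 4 belong to humoral immunity. Def, which encodes the antibacterial peptide Defensin, was 11.6-fold lower, the peptidoglycan-degrading PGRP-SC1a 8.45-fold, the immune-induced peptide gene edin 8.37-fold and the Attacin gene AttD 7.78-fold. The elongase gene CG8534 was at 121 against 13 and the gut serine protease gene Jon25Bi at 47.9 against 6.0. The uncharacterized CG40472, CG7567 and CG42367 completed the 12, at between 9.39-fold and 16.2-fold lower. Of the shared loci left out of the ranking, 4 had a ratio below that of AttD, the last of the 12 lowest, and 6 had one above that of Gbeta76C, the last of the 12 highest. Of these, named after their values were seen, the locus of the Wnt-inactivating enzyme Notum and mir-4941 was at 26.4 against 0.234, and that of the muscle actin Act57B and snoRNA:660 at 62.6 against 203.

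**Figure D3:**
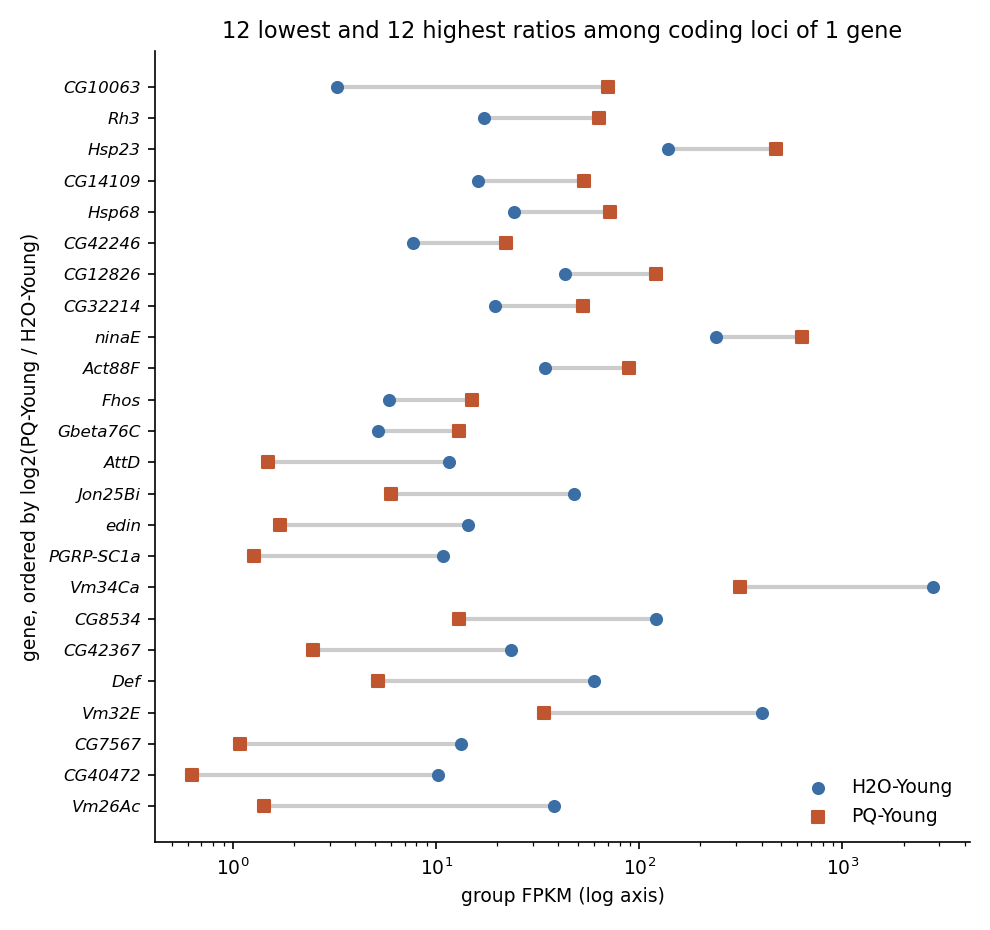
Group FPKM (log axis) in H2O-Young (circles) and PQ-Young (squares) of the 12 coding loci of 1 gene with the highest and the 12 with the lowest ratios, each line joining the pooled values of 1 gene. Among these, CG10063 spans the widest distance upward (3.24 against 69.8) and Vm26Ac the widest downward (38 against 1.43).

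Several genes of the heat shock response had higher values after paraquat. Small heat shock proteins hold unfolding proteins in solution, and 4 of 11 measured members were at least 2-fold higher with none lower, against 2.92% of all loci. Hsp23 was at 138 in H2O-Young and 472 in PQ-Young, Hsp26 at 599.6 against 1406, and the locus that Hsp22 shares with CG4456 at 253 against 635. Hsp67Bc, the fourth, was near the minimum at 0.895 against 2.10. Hsp27 showed little difference at 521 against 587, and the lens-crystallin relative l(2)efl stood at 59.2 against 53.3. The inducible Hsp70 relative Hsp68 was at 24.3 against 71.4, and Hsp70Bc, whose near-identical copies make its value uncertain, at 1.07 against 2.71. The constitutive Hsc70-4 (864 against 1204), the Hsp90 gene Hsp83 (405 against 545) and the transcription factor Hsf (7.51 against 11.4) stayed within 2-fold. None of the 8 subunits of the CCT chaperonin, which folds actin and tubulin, passed 2-fold, but all 8 had a ratio above 1, with a median log2 of 0.36 under the deposited scale. The mitochondrial and endoplasmic reticulum chaperone lists had medians of 0.21 and 0.22, with no member past 2-fold in either. Their highest members were the mitochondrial Hsp90 gene Trap1 at 8.97 against 17 and the unfolded-protein sensor Ire1 at 2.45 against 4.47.

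Enzymes that remove superoxide and peroxide did not share one direction. Sod1, the cytosolic superoxide dismutase, was among the most abundant transcripts, at 43243 in H2O-Young and 25791 in PQ-Young, a log2 ratio of -0.75. Mitochondrial Sod2 was at 737 against 538, Cat, the peroxisomal catalase, at 6127 against 4704, and the mitochondrial peroxiredoxin gene Prx3 at 1061 against 547. Prx6c was the only one of 13 members past 2-fold, at 29.6 against 14.7, whereas the extracellular Sod3 (233 against 304), Prx2 (928 against 1229) and the secretory-pathway Prx4 (17.7 against 29) had higher values after paraquat. The list median was -0.38 and turned to 0.05 under quantile normalization and after scaling to the sum. Within the Keap1 and CncC pathway, the main switch of antioxidant gene transcription in flies, none of 12 members passed 2-fold. Its transcription factor cnc was at 26.8 against 35.7, its inhibitor Keap1 at 9.35 against 10.2, and its classical target GstD1 at 981 against 1536. Gclc and Gclm, the subunits of the rate-limiting enzyme of glutathione synthesis, were at 23.4 against 18.8 and 162 against 184.

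Glutathione S-transferases conjugate glutathione to oxidized lipids and xenobiotics, and 4 of 34 measured genes were at least 2-fold lower with none higher, a share near the 9.27% of all loci. GstE9 was at 760.0 in H2O-Young and 375 in PQ-Young, GstZ1 at 66.5 against 27.1 and GstE10 at 9.78 against 4.06, and Mgstl, the abundant microsomal member, stood just short of the threshold at 30828 against 15689.6. The list median of -0.17 turned positive after scaling to the sum, under quantile normalization and after centring by length. Cytochrome P450 genes were lower at least 2-fold in 3 of 18 members of the Cyp4 family, 2 of 22 of the Cyp6 family and 7 of 28 others, while 2 of the others were higher. Of all loci 9.27% were lower and 2.92% higher. In the same order, 1 of 3, 1 of 2 and 3 of 7 lower genes were under an FPKM of 1 in PQ-Young. With a pseudocount of 1 the others had 1 lower and 1 higher, and after scaling to the sum 2 lower and 4 higher. The best expressed lower member of each group was Cyp4e1 (85.1 against 34.8), Cyp6w1 (14.9 against 5.08) and the mitochondrial Cyp12e1 (46.3 against 17.2), and Cyp309a1 (8.49 against 18.6) was among the higher ones. Cpr, the reductase that feeds electrons to microsomal P450 enzymes and can also pass them to paraquat, was at 3866 against 2672. Metal handling split. The metallothionein MtnA, which binds copper and zinc, was at 584 in H2O-Young and 1275 in PQ-Young and its relative MtnB at 3.28 against 6.71, both at least 2-fold higher. The locus of the copper importer Ctr1B was at 50.9 against 15.4 and the iron carrier Tsf1 at 149 against 71.7, both at least 2-fold lower, and the ferritin subunits Fer1HCH and Fer2LCH were at 1423 against 1528 and 742 against 662.

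The enzymes of hydrocarbon synthesis, the hallmark of oenocytes, were lower after paraquat. Elongation of very-long-chain fatty acids runs in a cycle of condensation, reduction, dehydration and reduction. Of 21 measured genes of this cycle, 10 were at least 2-fold lower and none higher, against 9.27% of all loci, and 20 of 21 had a ratio below 1. Several were abundant, and among all loci whose FPKM reached 1000, 18.6% were at least 2-fold lower and the median was -0.51. The condensing elongases CG18609 (2756 in H2O-Young and 637 in PQ-Young), CG9459 (1354 against 392), CG30008 (28309 against 9559) and CG9458 (20395 against 8656) were all past 2-fold. The dehydratase Hacd1 was at 12425 against 4674, while the reductases spidey (8060.2 against 5129) and Sc2 (8849 against 4477) and the female-specific elongase eloF (7317 against 3849) stayed within 2-fold. The list median was -0.98, and -0.82 after centring by length. Fewer members were past 2-fold under other scalings, 5 of 21 under quantile normalization and 4 after scaling to the sum, with the median at -0.59 and -0.55.

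Fatty acyl-CoA reductases supply the aldehydes from which hydrocarbons and wax-like lipids are made. Of 13 measured, 8 were at least 2-fold lower, against 9.27% of all loci. The locus of FarO, the oenocyte reductase, shares its value with an antisense RNA and was at 3044 in H2O-Young and 1034 in PQ-Young. CG4020, the most abundant member, was at 7898 against 3941, CG17562 at 1727 against 762 and Sgp, another marker of oenocytes, at 1714 against 621. Under quantile normalization 4 of the 13 and after scaling to the sum 3 were past 2-fold. Upstream, the fatty acid synthase FASN3 was at 694 against 205 and its paralog FASN2 at 2038 against 1353, while FASN1, the synthase of fat tissue, was at 53.6 against 43.4. The desaturase relative CG15531 (16827 against 7651) was past 2-fold, and Fad2, the female desaturase that makes pheromone dienes, was at 15747 against 8545. Among all loci whose FPKM reached 1000, 18.6% were at least 2-fold lower and the median was -0.51. Across all 14 oenocyte markers measured, 4 were at least 2-fold lower, none had a ratio above 1 and the median was -0.72, or -0.28 after scaling to the sum. The identity factors of the list showed smaller differences: svp was at 62.9 against 41.6, salm at 17.5 against 13 and Hnf4 at 112 against 87.1.

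Degradation of fatty acids showed less. Mitochondrial fatty acid oxidation had 1 of 14 members past 2-fold, the acyl-CoA dehydrogenase Arc42 at 351 against 173, and the carnitine transferase whd was at 26.2 against 35.9. None of 14 peroxins, which assemble peroxisomes, and none of 15 peroxisomal beta-oxidation genes passed 2-fold, with medians of -0.30 and -0.26 that turned positive after scaling to the sum. In the mevalonate pathway, Idi, the isopentenyl diphosphate isomerase, was lower at 703 against 242, whereas Hmgs, the enzyme that forms HMG-CoA, was at 1253 against 1132. The insulin-binding ImpL2 was at 4376 against 2799.8 and the translation repressor Thor at 1070.4 against 778, both within 2-fold, and of 19 measured genes of insulin, FOXO and TOR signaling only chico, the insulin receptor substrate, was past 2-fold, at 0.835 against 1.80.

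**Figure D4:**
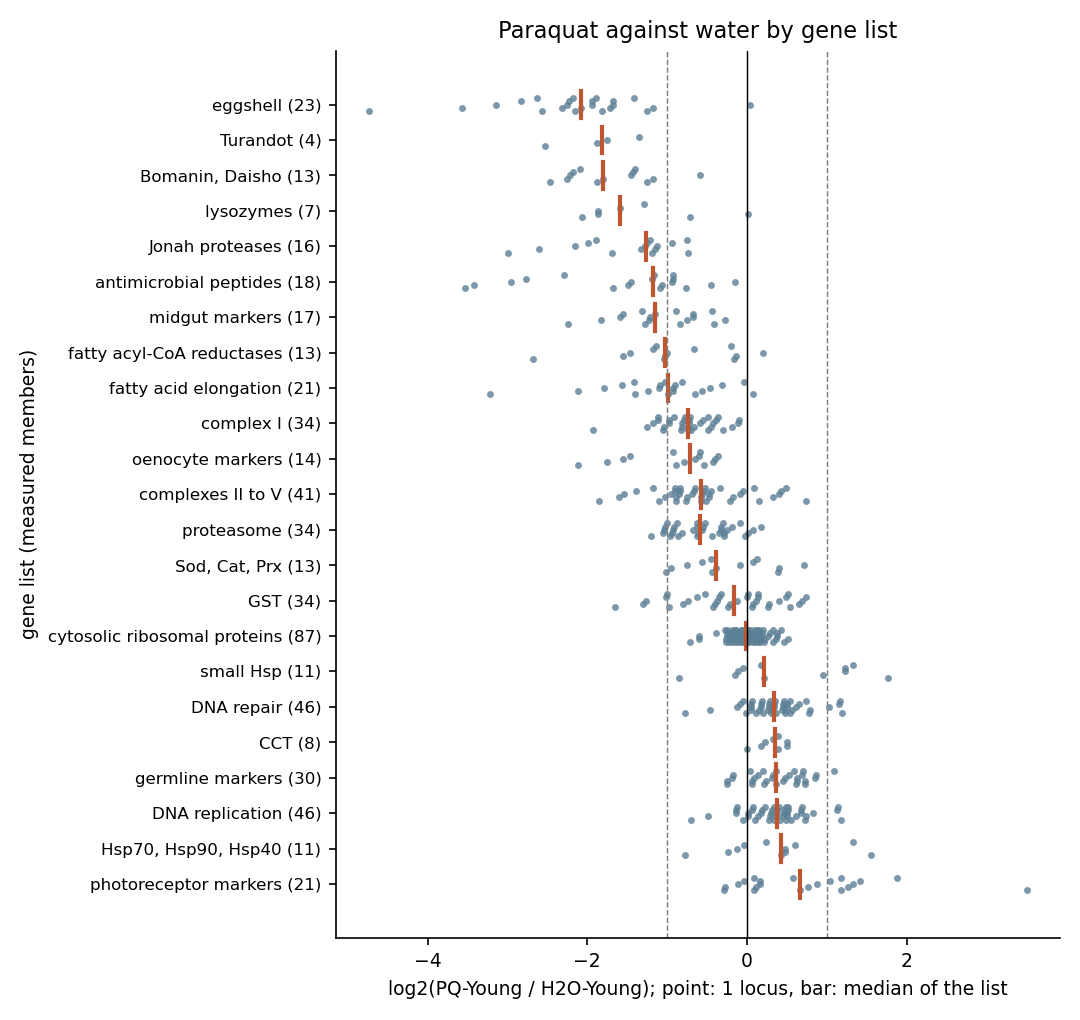
Log2 ratio of PQ-Young to H2O-Young for each measured member (points) of 23 gene lists, with the list median as a bar, a solid line at 0, dashed lines at 2-fold and the number of measured members in brackets. Eggshell, immune peptide, gut protease and lipid lists have medians left of 0, and heat shock, DNA, germline and photoreceptor lists have medians right of 0.

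Subunits of oxidative phosphorylation were lower as groups. Complex I takes electrons from NADH, and all 34 measured subunits had a ratio below 1, with 7 at least 2-fold lower and a median of -0.73. ND-B12, the most abundant, was at 6399 in H2O-Young and 3241 in PQ-Young, ND-30 at 1881 against 959, ND-49 at 366 against 169 and ND-ASHI at 1063 against 489. Complexes II to V had 7 of 41 lower and none higher, with a median of -0.58. Their lower members included SdhC of succinate dehydrogenase (1732 against 811), COX7B of cytochrome c oxidase (3540.1 against 1562) and UQCR-6.4 of the cytochrome bc1 complex (2599 against 1277). Of the 7 lower members, 2 were under an FPKM of 1 in PQ-Young. With a pseudocount of 1, 4 of the 41 were lower. Of all loci 9.27% were at least 2-fold lower. The share was 18.6% among loci whose FPKM reached 1000 and 21.2% among loci of 500 to 1000 nt. Centring by length moved the medians of complex I and of complexes II to V to -0.46 and -0.33. It left 4 lower in complex I and 2 lower and 2 higher in complexes II to V. Scaling to the sum left 1 of 34 and 3 of 41 members at least 2-fold lower, with medians of -0.30 and -0.14, and quantile normalization left 1 and 4. Mitochondrial ribosomal proteins had 3 of 73 lower, under the share of all loci, and a median of -0.47, which was -0.19 after centring by length.

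The proteasome, which degrades ubiquitinated proteins, showed a similar level of difference. Of 34 measured subunits 5 were at least 2-fold lower, 31 had a ratio below 1 and the median was -0.58. Among all loci whose FPKM reached 1000, 18.6% were at least 2-fold lower and the median was -0.51. Prosalpha2 of the core particle was at 15986 in H2O-Young and 6936 in PQ-Young, Prosbeta1 at 8985 against 4424 and the lid subunit Rpn9 at 1157 against 564. These were abundant transcripts, and no subunit was past 2-fold under quantile normalization, with a median of -0.08, or after scaling to the sum, with a median of -0.15. Cytosolic ribosomal proteins, also abundant, had none of 87 members past 2-fold. Their median was -0.01, which turned to 0.29 after centring by length and to 0.43 under quantile normalization. Glycolysis had none of 13 members past 2-fold, with a median of 0.10. Aminoacyl-tRNA synthetases had none of 32 past 2-fold, and 2 of 36 translation initiation factors were lower, of which eIF2Balpha was at 259 against 119.

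Genes of DNA replication and repair had slightly higher values as groups. Of 46 replication genes 40 had a ratio above 1, 3 were at least 2-fold higher and none lower, and the median was 0.38. RPA2 of the single-strand binding complex was at 17.8 in H2O-Young and 39.3 in PQ-Young, RfC38 of the clamp loader at 5.88 against 12.8 and Mcm10, which activates the replicative helicase, at 2.76 against 6.25, while the sliding clamp PCNA was at 291 against 409. Of 46 repair and checkpoint genes 40 had a ratio above 1 and 4 were at least 2-fold higher, with a median of 0.34. These were the recombination gene spn-B (3.38 against 7.71), the mismatch repair gene Msh6 (1.36 against 3.06), DNAlig4 of end joining (1.52 against 3.39) and the checkpoint kinase mei-41 (1.08 against 2.21), all at low levels, and none of the 4 stayed past 2-fold with a pseudocount of 1. Both lists hold genes that the ovary expresses strongly. Germline markers also lay mostly above a ratio of 1 (26 of 30), with a median of 0.37 and a summed FPKM of 3891 in H2O-Young and 4392 in PQ-Young. Whether germline RNA had a part in the replication and repair values was not tested. Among cell death genes, the initiator caspase Dronc was at 3.60 against 7.57, the other 7 measured members were within 2-fold, and the death inducers rpr, grim and skl were below an FPKM of 1 in both groups.

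Effectors of humoral immunity were lower as a group. Of 18 measured antimicrobial peptide genes 12 were at least 2-fold lower and none had a ratio above 1. The antifungal Drosomycin gene Drs was at 1063 in H2O-Young and 476 in PQ-Young, Mtk, which encodes Metchnikowin, at 579.9 against 118, and the Diptericin genes DptA and DptB at 58.1 against 25.5 and 129.6 against 40.6. CecA1 (12.2 against 11) and AttC (8.45 against 6.19) showed the smallest differences. Bomanins and Daisho peptides, short secreted effectors of the Toll pathway, were lower at least 2-fold in 12 of 13 measured genes, BomS6 at 1203 against 282, BomS3 at 839.6 against 353 and Dso2 at 400.4 against 72.4. Centring by length reduced these counts to 5 of 18 and 7 of 13, with the medians at -0.70 and -1.43, from -1.17 and -1.80.

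The signaling genes upstream were more mixed. In the Imd pathway, which senses bacterial peptidoglycan, the receptor PGRP-LC was at 418 in H2O-Young and 188 in PQ-Young and the secreted amidases PGRP-SC2 and PGRP-SB1 at 98.8 against 37 and 73.1 against 11.1. The adaptor imd (10.5 against 12.8), the kinase Tak1 (19.4 against 21.4) and the transcription factor Rel (79.9 against 68.4) stayed within 1.5-fold. The locus of the caspase Dredd, at 443 against 34.3, also holds mir-9372, and its value cannot be split between them. In the Toll pathway the extracellular recognition protein PGRP-SA was at 40.7 against 14.7 and the protease grass at 17.1 against 7.67, both lower at least 2-fold. The intracellular Myd88 (33.8 against 36.2), the inhibitor cact (105 against 147) and the transcription factors dl (40.7 against 43) and Dif (4.94 against 6.32) stayed within 2-fold. All 4 measured Turandot genes, which encode humoral stress peptides, were lower, TotC at 52.2 against 9.01 and TotM at 52.6 against 14.3, with a median of -1.82 that was -1.23 after centring by length. The JAK-STAT ligand upd3 was higher but scarce, at 0.738 against 1.59. Of the lysozyme genes 5 were lower, among them LysX at 149 against 35.7 and LysS at 25.1 against 8.34. LysP stayed within 2-fold at 492 against 300. The list of 7 also held LysRS, a tRNA synthetase gene matched by its name, at 172 against 174. LysB, LysD and LysE were lower as well, but these near-identical copies may share reads. After centring by length 3 lysozyme genes were lower. The median of the 7 listed genes, LysRS included, moved from -1.59 to -0.91.

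Genes that mark other tissues were also among the loci past 2-fold. Eggshell and follicle cell genes were at least 2-fold lower in 22 of 23 cases, with a median of -2.07, and in 21 of 23 after centring by length. The chorion genes Cp18 and Cp19 were at 3190.1 in H2O-Young and 758 in PQ-Young and at 2185 against 489, respectively, and the vitelline membrane gene Vm26Ab at 2308 against 391. Pxt, a peroxidase with a wider expression in the ovary, was the exception at 56.5 against 58.3. Yolk protein genes of fat tissue and follicle cells were at 6020.3 against 3099 for Yp1, 14515 against 4220.2 for Yp2 and 899 against 463 for Yp3. The locus of yl, the yolk receptor of the oocyte, and mir-4917 was at 1666 against 223, and its value cannot be split between them.

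The midgut markers were lower in 9 of 17 and the Jonah digestive proteases in 13 of 16, with no ratio above 1 in either list. After centring by length these counts were 7 of 17 and 7 of 16, after scaling to the sum 4 and 6, and the length-centred medians were -0.90 and -0.98. Jon65Aiii was at 1739 in H2O-Young and 780.1 in PQ-Young, Jon99Cii at 820.4 against 253, the trypsin betaTry at 1615 against 666 and the maltase Mal-A6 at 489 against 138. Some of these proteases are close copies of each other, and reads may be shared between them. The summed FPKM of the midgut markers was 8126 in H2O-Young and 4393 in PQ-Young. Fat body markers were lower in 2 of 8 measured genes, the larval storage proteins Lsp2 (4.58 against 0.634) and Lsp1beta (17.4 against 5.74), and Fbp1 was near 0 in both groups. Neuron markers had 4 of 18 lower, against 9.27% of all loci, and 2 of these 4 were under an FPKM of 1 in PQ-Young. With a pseudocount of 1 the count was 1 of 18, and the median of -0.33 turned to 0.11 after scaling to the sum. The summed FPKM of the neuron markers was 149 in H2O-Young and 107 in PQ-Young. Hemocyte and Malpighian tubule markers had none past 2-fold among 7 each. Odorant-binding protein genes were lower in 8 of 24, Obp99a at 289.7 against 80.3 and Obp56g at 16.5 against 4.86, with a median of -0.81 that was -0.45 after centring by length. Cpr cuticular protein genes were lower in 17 of 35, with Cpr49Ab at 119 against 57.6 and Cpr65Au at 73.1 against 26.1. Of these 17, 10 were under an FPKM of 1 in PQ-Young and so were measured only through their value in H2O-Young, and the count was 10 with a pseudocount of 1 and 9 after centring by length, where 3 were higher. The part that RNA of these tissues had in the other gene groups was not tested.

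Photoreceptor genes went the other way, with a median of 0.66. Of 21 measured, 8 were at least 2-fold higher, against 2.92% of all loci, and none lower. Beside Rh3 and ninaE these were the arrestin Arr1 (76.8 in H2O-Young and 174 in PQ-Young), the channel trpl (13.2 against 31.6), the myosin ninaC (8.62 against 19.5), the adhesion protein chp (4.81 against 9.86), Gbeta76C (5.15 against 12.9) and the kinase inaC (0.495 against 5.63). The kinase inaC was measured only through its value in PQ-Young. The count of higher genes was 7 with a pseudocount of 1 and after centring by length. It was 9 under quantile normalization and 12 after scaling to the sum. Other photoreceptor genes showed little difference, such as the opsin Rh6 (76.2 against 62.7), the phospholipase norpA (30.04 against 29.3) and the channel trp (35.3 against 39.6). Of 28 muscle genes 5 were higher, against 2.92% of all loci, and 2 were lower, against 9.27%. After centring by length 5 were higher and 1 lower, and after scaling to the sum 8 were higher and none lower. The actin Act88F (34.4 against 89.5), the locus of the actin Act57B with a snoRNA (62.6 against 203) and the myosin light chain Mlc1 (19.5 against 43.1) were higher. Mlp60A, a LIM protein of muscle, was lower at 209 against 82, and the heavy chain Mhc stood at 7.59 against 13.1. Of the hormone genes, sad, a mitochondrial hydroxylase of ecdysteroid synthesis, was higher at 68.8 against 157.

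Several regulatory and housekeeping groups had no member past 2-fold on the deposited scale. This held for 20 autophagy genes, 15 of JNK and p38 signaling, 13 of Ras and MAPK signaling, 11 of the circadian clock, 13 nuclear receptors, 10 of mitochondrial quality control and dynamics, 14 of lipid droplets and lipoproteins, 9 of glycogen and trehalose metabolism, and 9 of thioredoxin and glutathione metabolism. A single member was lower in the TCA cycle (SdhC, of 17) and in the vacuolar proton ATPase (VhaM9.7-a at 1.99 against 0.891, of 22), the pump that acidifies lysosomes. Among 15 UDP-glycosyltransferases, which add sugars to xenobiotics, Ugt37A2 alone was lower at 1.11 against 0.483. Serpins, inhibitors of serine proteases, had Spn31A higher (0.501 against 1.29) and Spn42De lower (2.17 against 1.0) among 11.

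Lower loci also lay side by side in the genome. In 14 places at least 4 neighbouring measured loci were all at least 2-fold lower, 71 loci in all, and no such run of higher loci was found. The longest run held 10 loci on chromosome 2R (18382704 to 18395282, dm6), 9 of them Bomanin genes, followed by Idgf5, a chitinase-like growth factor gene, with a median log2 ratio of -1.43. A run of 6 on 2L (5956489 to 5967752) held 4 vitelline membrane genes and had a median of -2.59. A run of 5 on 3L (8721324 to 8732599) held CG43965 and the chorion genes Cp18, Cp15, Cp19 and Cp16, with a median of -2.11. Chorion genes also gave a run of 5 on X (8465690 to 8483885) with a median of -1.81, although the 5 on X are assigned to a single merged locus. Trypsin genes gave 2 adjoining runs on 2R (11337797 to 11342760 and 11345237 to 11357537) with medians of -1.24 and -1.59, the latter with CG13202 among them. Whole chromosomes differed little, with medians between -0.02 on 3R and -0.08 on 2R, and -0.22 over the 63 loci of chromosome 4.

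Noncoding loci had a wider spread, with 46 of 437 at least 2-fold higher and 117 lower. The largest fold difference of all measured loci was that of lncRNA:CR45911 with mir-13b-1 on 3R. This locus was lower, at 90.1 in H2O-Young and 0.0826 in PQ-Young, and stood at 0.0371 and 0.107 in the aged groups. The locus of Notum, a secreted inhibitor of Wnt signaling, shared with mir-4941, was likewise high in H2O-Young alone, at 26.4 against 0.234. Pooled values do not show how many libraries such a value rests on. Among snoRNAs, which guide modification of ribosomal RNA and are rarely polyadenylated, snoRNA:Dek-a was higher at 14.1 against 68.8, and the locus of snoRNA:M and snoRNA:Me28S-G980 was lower at 217 against 5.70. Of the 139 loci listed at 0 in one group, 65 were so in H2O-Young and 74 in PQ-Young, and 54 of the 139 were snoRNAs. The highest of these were snoRNA:Me18S-G1358a and mir-12, listed at 530.5 and 222 in H2O-Young and at 0 in PQ-Young. These RNAs are shorter than the fragments of a poly(A) library, and no fold is given against a value of 0.

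Aged flies received the same paraquat dose in other libraries, so the values of both ages can be set side by side. Of 9111 loci measured there, 221 (2.43%) were at least 2-fold higher and 213 (2.34%) lower in PQ-Aged. Over the 8806 loci measured at both ages the log2 ratios were weakly and negatively related (Pearson's r = -0.11, Spearman's rho = -0.16), a description across loci that share libraries within each age. Of the 217 loci higher in PQ-Young and measured in aged flies, 16 (7.37%) were higher and 11 (5.07%) lower in PQ-Aged. The 622 lower in PQ-Young divided into 53 (8.52%) that were higher and 41 (6.59%) that were lower. Of the 165 loci higher in PQ-Aged, 16 (9.70%) were higher and 53 (32.1%) lower in PQ-Young. Of the 169 lower in PQ-Aged, 11 (6.51%) were higher and 41 (24.3%) lower in PQ-Young. A difference between the ages in the effect of paraquat was not tested, since each value is pooled.

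The groups that were lowest in PQ-Young had medians nearer 0 in aged flies. Bomanins and Daisho peptides had a median log2 ratio of -1.80 in young and 0.03 in aged flies, with none of 13 past 2-fold there. Complex I subunits had medians of -0.73 and 0.12, and eggshell markers of -2.07 and -0.52. The elongation genes were at -0.98 and -0.28 with none of 20 past 2-fold in aged flies. CG30008 was at 1035 in H2O-Aged against 879 in PQ-Aged. CG8534 was unlike its relatives, at 201 and 225. Of 22 eggshell markers measured in aged flies, 3 were at least 2-fold lower in PQ-Aged, against 2.34% of all loci. The yolk gene Yp1 was also past 2-fold there, at 1131 in H2O-Aged and 479 in PQ-Aged. The water groups also differed between the ages. In H2O-Young and H2O-Aged, the vitelline membrane gene Vm34Ca was at 2780.5 and 200, the chorion gene Cp16 at 1242 and 36.3, and BomS6 at 1203 and 131. BomS1 was at similar levels, 109 and 111. Whether the smaller ratios in aged flies go with these levels was not tested. Hsp23 and Hsp26 had high levels in both aged groups, with Hsp23 at 3803 and 4809 and Hsp26 at 5573 and 4341. The metallothionein genes MtnA and MtnB had ratios above 1 at both ages, where H2O-Aged against PQ-Aged gave 514 and 988 for MtnA and 1.15 and 3.20 for MtnB. CG10063, the first gene named for young flies, was at 17.4 and 10.1.

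**Figure D5:**
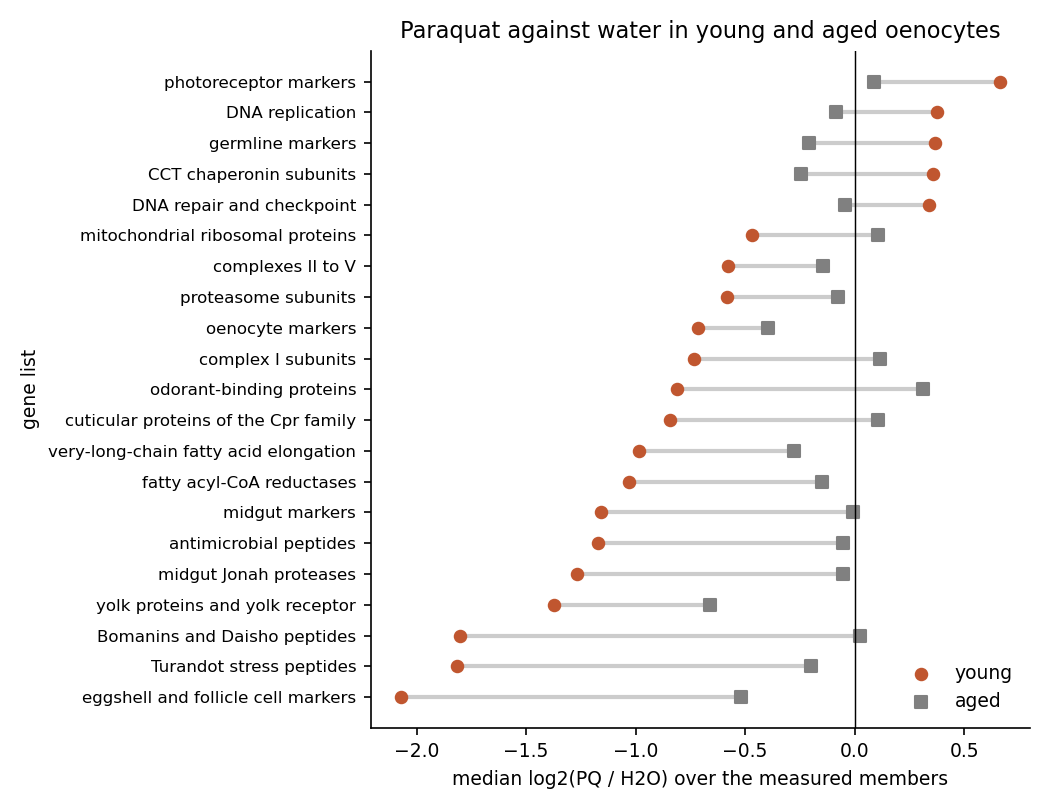
Median log2 ratio of paraquat to water over the measured members of 21 gene lists in young (circles) and aged (squares) flies, joined by a line. Eggshell markers lie at -2.07 in young and -0.52 in aged flies, and photoreceptor markers at 0.66 and 0.09.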

How the data were processed

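Translating RNA of oenocytes was immunoprecipitated through FLAG-tagged RpL13A (RiboTag), and poly(A) RNA was sequenced with single-end reads in 12 libraries, 3 per group. Per the labels, groups are defined by age and by paraquat or water. The authors aligned reads to dm6 with TopHat2, assembled and merged transcripts with Cufflinks and compared groups with Cuffdiff. The authors deposited 1 FPKM per locus and group, normalised for transcript length and library size and pooled over the 3 libraries, so depth per library is unknown and no error can be given. The deposited table also holds the authors' fold changes, test statistics, p-values and q-values, which were not used. RefSeq identifiers were mapped to symbols with the annotation of the same build, 16061 of 16191 loci.

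Log2 ratios were recomputed for loci with an FPKM of at least 1 in one young group and above 0 in both (Python 3.11.15, pandas 2.3.3, numpy 2.4.6, matplotlib 3.10.9), without pseudocount. Called means a ratio of at least 2-fold, without a test, and the counting of calls was checked on simulated data. The genes named are the 12 highest and 12 lowest coding loci of 1 gene and the 5 highest and 5 lowest noncoding loci with an FPKM of at least 10, members of 71 gene lists, members of runs of at least 4 neighbours, the 5 highest loci listed at 0 in one group, and RpL13A. The loci and gene lists were chosen with earlier results of these data known, and some lists hold genes the study names. Centring by length subtracted the median of 401 loci of similar longest transcript, a choice made after seeing the data. Alternatives were other minimums, folds, a pseudocount and 4 scalings.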

Additional observations from a re-analysis of the deposited data

How the results depend on the processing

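Loci at least 2-fold higher and lower numbered 276 and 877 on the deposited scale. They numbered 76 and 436 with a minimum FPKM of 10, 652 and 1560 with no minimum, 107 and 583 with a pseudocount of 1, 940 and 1856 at 1.5-fold, and 44 and 207 at 4-fold. Scaling to the sum of FPKM gave 996 and 429. Counts stayed within 1.5 times of these under median scaling (305 and 802), scaling to Gapdh1 (224 and 1049), quantile normalization (343 and 674), in loci of 1 coding gene (214 and 710) and after centring by transcript length (375 and 612), an alternative chosen after seeing the data. Of 240 named genes past 2-fold, 234 stayed past it scaled to Gapdh1, 223 by the median, 192 under quantile normalization, 183 with the pseudocount, 173 after centring by length and 152 scaled to the sum.

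No paired analysis was possible because each group has 1 pooled value and replicate numbers are not carried by any column. For the same reason leaving out single libraries was not run, and depth, which limits scarce loci most, is unknown.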
